A study of Mus musculus with 8 samples.

Results

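The genes described here encode the subunits of the oxidative phosphorylation system, complexes I to IV of the respiratory chain and ATP synthase (complex V). Members were chosen by symbol, as all genes named as Nduf, Sdh, Uqcr, Cox4 to Cox8, Atp5 or mt-Nd, mt-Co, mt-Cytb and mt-Atp, with pseudogene symbols left out. This gave 103 of the 55487 genes listed in the count tables, 90 of them in the nuclear genome and 13 in the mitochondrial genome. Liver RNA of 4 Control and 4 Mc1r LKO mice was sequenced after 12 weeks of Western diet to ask how loss of the melanocortin 1 receptor (MC1R) in hepatocytes changes hepatic gene expression. Control mice carried the floxed Mc1r allele on both chromosomes (Mc1r fl/fl) without Cre. Mc1r LKO mice carried the floxed allele together with an Alb Cre transgene, in which the albumin promoter directs recombination to hepatocytes. Recombination in other liver cells was not examined here. All mice were male, were put on the diet at 8 weeks of age and were fasted for 4 hours before death. Values of single mice are given below in the order 154, 159, 181, 193 for Control and 141, 156, 157, 182 for Mc1r LKO, the numbers in the labels.

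Between 10773151 (Control mouse 159) and 24763375 (Mc1r LKO mouse 157) read pairs were counted on genes per mouse. Mc1r itself had 0 counts in every mouse, and a count of 0 allows up to 3 counts, between 0.121 and 0.278 CPM (counts scaled to library size), for counting error only, so the genotype could not be checked against the targeted gene. Markers of hepatocytes were abundant in every mouse, with a summed level of 74939 to 91898 CPM in Control and 81569 to 107731 CPM in Mc1r LKO mice. Of the genes tested, 13400 in all, 0 passed an adjusted p-value of 0.05 in edgeR's quasi-likelihood test (0% of the genes, smallest adjusted p 0.118), while 901 had an unadjusted p under 0.05 and the DESeq2 Wald test called 16. The calls described below are therefore at the unadjusted p, with or without a limit of 0.25 on the size of the log2 fold change, and "called" means this. None of them holds after adjustment over all genes, where the adjusted p of the called members lay between 0.734 and 0.74. These p-values set the difference between the genotypes against the spread between mice of the same genotype, which is estimated with information shared across genes.

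In oxidative phosphorylation, complexes I and II take electrons from NADH and succinate and pass them through ubiquinone to complex III, cytochrome c and complex IV, where oxygen is reduced. Complexes I, III and IV pump protons across the mitochondrial inner membrane, and ATP synthase makes ATP from the gradient. Hepatocytes are rich in mitochondria and use the system to oxidise fatty acids and to drive gluconeogenesis and urea synthesis. Complexes I, III, IV and V combine subunits encoded in the nucleus with a few encoded in mitochondrial DNA, whereas complex II is encoded in the nucleus alone.

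By symbol, complex I held 46 members (39 nuclear and 7 mitochondrial), complex II 4, complex III 9, complex IV 24 and complex V 20. Ndufa4 and Ndufa4l2, named after complex I, were placed with complex IV, to which the Ndufa4 protein belongs. The filter on low counts kept 90 of the 103 members, 79 nuclear and 11 mitochondrial. Those not kept were mt-Nd4l, mt-Atp8, Cox4i2, Cox6a2, Cox6b2, Cox6c2, Cox7b2, Cox8b, Cox8c, Ndufa11b, Ndufb4c, Ndufs6b and a second entry of Atp5o, and 4 of these (Cox7b2, Cox8c, Ndufa11b and the second Atp5o) had 0 counts in every mouse. Among the kept members Atp5s is a related factor and no subunit. The rule on symbols leaves out cytochrome c1 (Cyc1), whose mean was 199 ± 9.21 in Control against 216 ± 6.25 in Mc1r LKO livers (CPM, SD, n = 4 each), with a log2 fold change of 0.12 (standard error 0.08).

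The nuclear subunits were slightly higher in Mc1r LKO livers as a group. Of the 79 tested, 76 had a log2 fold change above 0, where 47.9% of all genes tested did. Their median log2 fold change was 0.18, or 1.14-fold, against -0.01 over all genes tested. At the unadjusted p without a limit on the fold change, 29 of the 79 were higher in Mc1r LKO mice and 0 were lower, where 3.86% of all genes were higher and 2.87% lower. With the limit of 0.25 on the log2 fold change 8 were higher and 0 lower, where the shares of all genes were 2.64% and 2.66%. The count of 8 became 25 without Control mouse 159, 22 without Mc1r LKO mouse 182, 15 without Mc1r LKO mouse 157, 2 with library size alone and 0 with a trend on coding length in the fit. In 20 of the 79 the lowest Mc1r LKO mouse exceeded the highest Control mouse, against 2.63% of all genes tested. The smallest adjusted p of any member was 0.734 in edgeR's quasi-likelihood test, so the calls describe many small differences of 1 direction and no single gene past adjustment. The count at the unadjusted p depended on single mice, with 10 higher without Control mouse 193, 11 without Mc1r LKO mouse 156, 17 without Control mouse 154, without Control mouse 181 or without Mc1r LKO mouse 141, and 42 without Control mouse 159. It was 6 when counts were scaled by library size alone, which moved the median of all genes to -0.06 and the share of all genes called higher to 1.69%. It was 2 with a trend on coding length in the fit, described below with the lengths of the subunits.

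The shift was visible in the single mice. The median over the nuclear subunits of the log2 CPM minus each gene's mean over the 8 mice was -0.10, -0.00, -0.09 and -0.17 in the Control mice and 0.13, 0.14, 0.06 and 0.04 in the Mc1r LKO mice. The genotypes did not overlap, though Control mouse 159 and Mc1r LKO mouse 182 lay close to each other. Of the 79 genes, 14, 37, 17 and 7 were above their own mean in the Control mice and 73, 72, 66 and 51 in the Mc1r LKO mice. As a share of all counts, without any further normalization, the nuclear subunits took 1.34%, 1.32%, 1.28% and 1.31% in the Control mice and 1.48%, 1.48%, 1.40% and 1.26% in the Mc1r LKO mice. On that scale the genotypes overlapped, because mouse 182 had the lowest share of all.

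**Figure D1:**
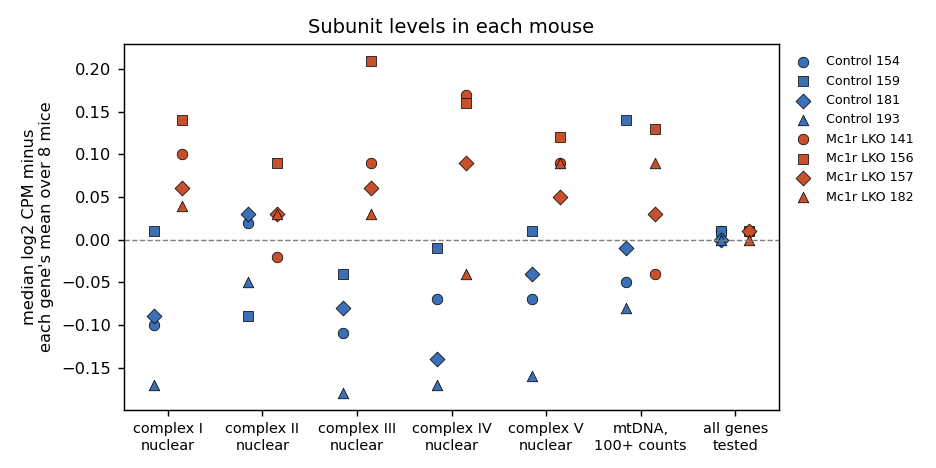
Median over each group of subunits of the log2 CPM minus each gene's mean over the 8 mice (vertical axis, log2 units), for every mouse, with Control mice in blue and Mc1r LKO mice in orange and 1 symbol shape per mouse within a genotype. Mc1r LKO mice lay above Control mice for the nuclear subunits of complexes I, III and V, mouse 182 reached into the Control range for complex IV, and the mitochondrial genes and complex II overlapped.

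The same comparison was made complex by complex. The median log2 fold change of the nuclear subunits was 0.19 for complex I (36 genes), 0.19 for complex III (8 genes), 0.19 for complex IV (14 genes) and 0.18 for complex V (17 genes), and 0.09 for the 4 genes of complex II. Log2 fold changes above 0 were found in 35, 8, 13, 17 and 3 of these genes for complexes I, III, IV, V and II. At the unadjusted p without a limit, 15 genes of complex I, 3 of complex III, 5 of complex IV and 6 of complex V were higher. For complex II it was 0 of 4, where 3.86% of all genes tested were higher, so this count does not set complex II apart. Its coding lengths ran from 477 (Sdhd) to 1992 bases (Sdha), and the shares called by length are given below. The differences between complexes were not tested, and the medians of complexes I, III, IV and V lay within 0.01 of each other. Genes of at least 10 CPM among the nuclear subunits (76 genes) varied little between mice, with a median SD within a genotype of 0.1 on the log2 scale, against 0.168 over 7758 genes of that level.

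**Figure D2:**
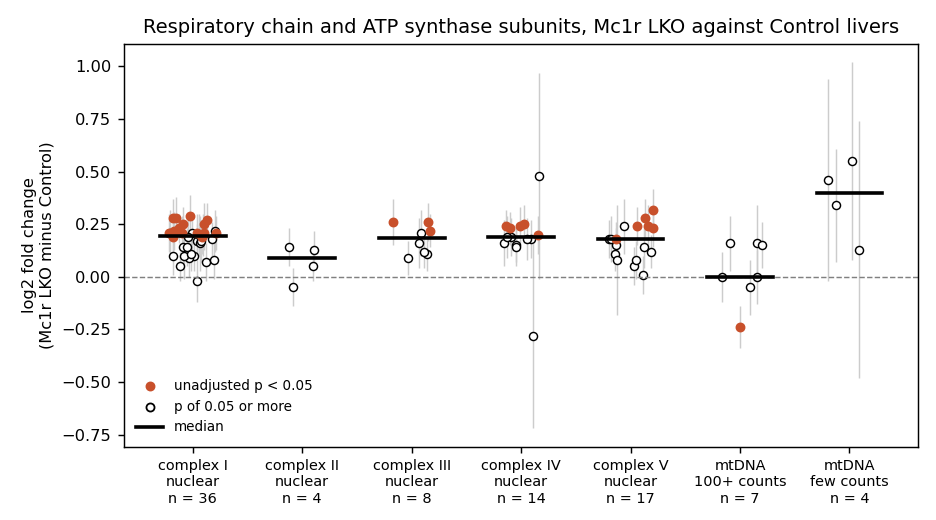
Log2 fold change of each tested subunit (points, with bars of 1 standard error) by complex and genome, with orange points for an unadjusted p under 0.05 and a black line at the median. Nearly all nuclear subunits sat between 0 and 0.32, whereas the 7 mitochondrial genes with at least 100 counts in every mouse spread around 0.00 and mt-Nd5 was the only member called lower.

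Complex I, the NADH dehydrogenase, holds a core of catalytic subunits shared with bacteria and many accessory subunits that stabilise it. The accessory subunits had a median log2 fold change of 0.21, and all 29 tested were above 0. The 7 nuclear core subunits had a median of 0.11 and 6 were above 0. With the coding-length trend in the fit the medians were 0.09 for accessory and 0.10 for core subunits, so the order of these groups did not hold. Ndufa11 (ENSMUSG00000002379, chromosome 17 of GRCm38, 56717767 to 56722141), a membrane accessory subunit, had the smallest unadjusted p of all members. It was at 46.7, 51.7, 45.8 and 44.8 CPM in the Control mice and 59.5, 58.7, 56.6 and 53 CPM in the Mc1r LKO mice, so the lowest Mc1r LKO mouse lay just above the highest Control mouse. The log2 fold change was 0.27 (standard error 0.08, adjusted p = 0.734 in edgeR's quasi-likelihood test). Ndufv2 (ENSMUSG00000024099, chromosome 17, 66078638 to 66101559), an iron-sulfur core subunit of the arm that oxidises NADH, was at 119, 119, 113 and 114 CPM in Control and 142, 138, 135 and 132 CPM in Mc1r LKO mice. These groups were tight and did not overlap, with a log2 fold change of 0.23 (standard error 0.07).

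Ndufb9 (ENSMUSG00000022354, chromosome 15, 58933756 to 58939488) stood at 139, 142, 160 and 138 CPM in the Control mice and 177, 171, 170 and 169 CPM in the Mc1r LKO mice. Control mouse 181 lay apart from the other Control mice and still below every Mc1r LKO mouse, and the log2 fold change was 0.25 (standard error 0.08). Ndufa13, also known as Grim19 (ENSMUSG00000036199, chromosome 8, 69894180 to 69902558), was at 141, 175, 156 and 145 CPM against 194, 198, 175 and 180 CPM, where Control mouse 159 and Mc1r LKO mouse 157 were nearly equal. Its log2 fold change was 0.28 (standard error 0.09). Ndufa2 (log2 fold change 0.29, standard error 0.10) had a larger difference, but Control mouse 159, at 94.4 CPM, was above Mc1r LKO mouse 182, at 91.9 CPM. Ndufb11, Ndufb8, Ndufb3, Ndufb5 and Ndufb10, accessory subunits of the membrane arm, were also called without overlap, with log2 fold changes of 0.19 to 0.21 and standard errors of 0.08 to 0.09. At the other end, Ndufs1, the largest core subunit, was at 133, 107, 144 and 127 CPM in Control and 131, 123, 120 and 130 CPM in Mc1r LKO mice (log2 fold change -0.02, standard error 0.10). Ndufa10 (log2 fold change 0.05), Ndufs3 (0.07) and the flavoprotein Ndufv1 (0.08) also were not called.

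Complex II, succinate dehydrogenase, links the tricarboxylic acid cycle to the chain. Sdha, its flavoprotein, was at 596, 509, 608 and 563 CPM in the Control mice and 546, 548, 565 and 538 CPM in the Mc1r LKO mice. The Mc1r LKO values lay inside the Control range, with a log2 fold change of -0.05 (standard error 0.09). The iron-sulfur subunit Sdhb was at 184, 204, 218 and 203 CPM against 236, 232, 199 and 221 CPM (log2 fold change 0.13, standard error 0.09). For the membrane anchors, the log2 fold changes were 0.14 for Sdhd (standard error 0.09) and 0.05 for Sdhc (standard error 0.07), so none of the 4 genes passed.

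Complex III, the cytochrome bc1 complex, had 3 genes higher at the unadjusted p, all small subunits without a redox centre. Uqcr10 was at 135, 141, 131 and 125 CPM in Control and 171, 174, 156 and 138 CPM in Mc1r LKO mice. Mouse 182 lay among the Control mice, and the log2 fold change was 0.26 (standard error 0.09). Uqcrh, the hinge protein, was at 139, 146, 153 and 135 CPM against 159, 178, 161 and 168 CPM, without overlap (log2 fold change 0.22, standard error 0.08). Uqcrq was at 353, 408, 328 and 316 CPM against 455, 445, 398 and 379 CPM (log2 fold change 0.26, standard error 0.11), and Control mouse 159 lay above mice 157 and 182. The Rieske iron-sulfur protein Uqcrfs1 was at 209, 191, 209 and 193 CPM against 206, 221, 221 and 223 CPM. Only mouse 141 of the Mc1r LKO mice lay inside its Control range, and the log2 fold change was 0.12 (standard error 0.08). The large core proteins Uqcrc1 and Uqcrc2 had log2 fold changes of 0.11 (standard error 0.08) and 0.09 (standard error 0.08).

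In complex IV, cytochrome c oxidase, 5 of the 14 nuclear genes tested were higher at the unadjusted p and 0 reached the limit of 0.25 on the unrounded log2 fold change. Ndufa4 was at 288, 299, 278 and 261 CPM in Control and 350, 335, 322 and 318 CPM in Mc1r LKO mice, clearly apart (log2 fold change 0.24, standard error 0.08). Cox7a2, the liver form of subunit 7a, was at 129, 134, 133 and 119 CPM against 155, 160, 153 and 138 CPM (log2 fold change 0.23, standard error 0.08). Cox7a2l, of the same family, was at 57.2, 45, 51.1 and 53.2 CPM against 64.8, 61.5, 62.7 and 56.8 CPM (log2 fold change 0.25, standard error 0.09). Mouse 182 lay just below the highest Control mouse. Cox5b (0.24, standard error 0.09) and Cox4i1 (0.20, standard error 0.09) were the other genes called, each with mouse 182 inside the Control range. Cox6a1, with the highest level per kilobase of exon among the nuclear subunits, was at 331, 363, 292 and 297 CPM against 375, 397, 343 and 315 CPM (log2 fold change 0.16, standard error 0.11).

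ATP synthase had 6 genes higher of 17. Its catalytic F1 head is built from the alpha and beta subunits (Atp5a1 and Atp5b) with gamma, delta and epsilon, and its membrane part holds a ring of subunit c. The catalytic genes Atp5a1 (log2 fold change 0.01, standard error 0.09) and Atp5b (0.05, standard error 0.09) did not pass, and both turned below 0 without Control mouse 159, as Atp5a1 did without Mc1r LKO mouse 182. Atp5b was at 1161, 970, 1181 and 1119 CPM in Control and 1178, 1114, 1107 and 1178 CPM in Mc1r LKO mice. The small F1 genes Atp5e (epsilon, 0.24, standard error 0.10) and Atp5d (delta, 0.18, standard error 0.08) were called. Atp5g1 (ENSMUSG00000006057, chromosome 11, 96068852 to 96075670), 1 of 3 genes that encode the same mature subunit c, had the largest difference among the called members. It was at 101, 102, 96.4 and 82 CPM in the Control mice and 111, 129, 113 and 122 CPM in the Mc1r LKO mice. All Mc1r LKO mice were the higher ones, and the log2 fold change was 0.32 (standard error 0.10). Atp5j2 (ENSMUSG00000038690, chromosome 5, 145183698 to 145192062), subunit f of the membrane part, was at 141, 169, 144 and 145 CPM against 186, 196, 171 and 177 CPM. Control mouse 159 reached almost to the lowest Mc1r LKO mouse, and the log2 fold change was 0.28 (standard error 0.09). Atp5g2 (0.24, standard error 0.09) and Atp5h (0.23, standard error 0.09) were also called. The tables count reads by gene, and 57.3% of the 100-base words of the Atp5g1 transcript and 100% of those of Atp5g2 also occur in transcripts of other genes, so the levels of both are uncertain. For Ndufa13, Ndufb9 and Atp5h the share was 24%, 17% and 44.4%. Words were matched on either strand, and genes that overlap at the same place were not set apart from copies elsewhere. A share therefore need not mean that read pairs aligned to more than 1 place.

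The well counted genes of the mitochondrial genome lay around 0. Mitochondrial DNA is transcribed as long precursors that are cut into single RNAs, so its genes can be compared within 1 precursor. The 11 mitochondrial genes tested had a median log2 fold change of 0.15, with 8 above 0, close to the 0.18 of the nuclear subunits. Only 7 of the 13 had at least 100 counts in every mouse, and their median was 0.00, with 4 above 0. The difference from the nuclear subunits was not tested, and with the coding-length trend in the fit the medians were -0.02 for these 7 genes and 0.08 for the nuclear subunits. In the single mice their median was -0.05, 0.14, -0.01 and -0.08 in Control and -0.04, 0.13, 0.03 and 0.09 in Mc1r LKO livers, which overlapped. Without Control mouse 159 the median log2 fold change of these 7 genes was 0.09. All 13 together took 6.64%, 6.94%, 6.35% and 6.23% of the counts in the Control mice and 6.22%, 6.82%, 6.49% and 6.20% in the Mc1r LKO mice.

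Of the mitochondrial genes, mt-Nd5 (MT, 11742 to 13565), a proton-pumping core subunit of complex I, was lower in Mc1r LKO livers. It was at 6451, 6471, 6744 and 5605 CPM in the Control mice and 5422, 5197, 5232 and 5556 CPM in the Mc1r LKO mice, which lay below every Control mouse, as 1.54% of all genes did. The log2 fold change was -0.24 (standard error 0.10, adjusted p = 0.734 in edgeR's quasi-likelihood test). The call was lost (p between 0.0732 and 0.109) when 1 of the mice 154, 159, 181, 141, 156 or 157 was left out. Next to it on the same strand, mt-Cytb, the cytochrome b of complex III, was at 15071, 16451, 14499 and 13366 CPM against 15396, 17733, 15977 and 16975 CPM (log2 fold change 0.15, standard error 0.11). Within the counts of the 13 mitochondrial genes, mt-Nd5 took 10%, 9.3%, 10.3% and 9.53% in Control and 8.88%, 7.7%, 8.07% and 8.16% in Mc1r LKO mice. For mt-Cytb that share was 23.4%, 23.7%, 22.1% and 22.7% against 25.2%, 26.3%, 24.6% and 24.9%. Neither share overlapped between the genotypes, in opposite directions, and both were singled out after the values of the 6 abundant mitochondrial genes were seen.

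The log2 fold changes of the other well counted mitochondrial genes were -0.05 for mt-Co1 (standard error 0.13), 0.00 for mt-Nd1 (standard error 0.13), -0.00 for mt-Nd2 (standard error 0.12), 0.16 for mt-Nd4 (standard error 0.13) and 0.16 for mt-Nd6 (standard error 0.18). mt-Co1, the catalytic subunit of complex IV, was at 20463, 19254, 22190 and 18592 CPM in Control and 17431, 18145, 19433 and 22705 CPM in Mc1r LKO mice, so Mc1r LKO mice were both the lowest and the highest. mt-Nd6, the only protein gene on the other strand, was at 33.2, 28.9, 55 and 47.6 CPM against 43.4, 43.1, 48.1 and 49.9 CPM.

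The other 6 mitochondrial genes were nearly missing from the tables. mt-Co3, a core subunit of complex IV, had 42, 12, 8 and 18 counts in the Control mice and 18, 37, 24 and 7 in the Mc1r LKO mice, while mt-Co1 of the same complex had 207108 to 481088. Counts were 14 to 47 for mt-Co2, 9 to 35 for mt-Atp6, 21 to 98 for mt-Nd3, 0 to 12 for mt-Nd4l and 1 to 12 for mt-Atp8. A run of annotated copies of mitochondrial genes lies on the minus strand of chromosome 1 (GRCm38, 24611535 to 24616197). Of the 100-base words of the transcript, 99.5% were shared with another gene for mt-Co2, 99.5% for mt-Atp6, 99.9% for mt-Co3, 97.6% for mt-Nd3 and 98.5% for mt-Nd4l. The copy matched over 681 bases for mt-Co2 (Gm28661), 678 for mt-Atp6 (Gm10925), 783 for mt-Co3 (Gm28437) and 294 for mt-Nd4l (Gm10222) with 0 mismatches. Over 345 bases of mt-Nd3 the copy Gm28438 had 1 mismatch. The copies on chromosome 1 had 0 to 109 counts in any mouse. The options in the headers of the tables count no read pair that aligns to more than 1 place.

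The first 80 bases of mt-Co3 and of mt-Nd3, which are coding, are printed here beside the copies to show how closely they match, with the only differing base in capitals (T3C, counted from the first base of the mitochondrial gene to the copy). The sequences are from the GENCODE transcripts of GRCm38, on the strand of each gene.
mt-Co3, chrMT:8607-8686, plus strand: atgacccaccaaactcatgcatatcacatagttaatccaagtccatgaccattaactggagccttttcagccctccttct
Gm28437, chr1:24613892-24613971, minus strand: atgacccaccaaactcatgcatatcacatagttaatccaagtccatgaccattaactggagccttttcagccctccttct
mt-Nd3, chrMT:9459-9538, plus strand: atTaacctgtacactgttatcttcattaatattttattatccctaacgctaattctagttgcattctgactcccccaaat
Gm28438, chr1:24613040-24613119, minus strand: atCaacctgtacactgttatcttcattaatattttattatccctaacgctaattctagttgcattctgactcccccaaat

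The extent of the shared sequence differed between the genes. mt-Nd4 shared 60.8% of its words, with the copy Gm28439 aligned over 876 of its 1378 bases. mt-Co1 shared 30.8%, with Gm29216 aligned over 492 of its 1545 bases. Both had high counts, and the rest of each gene lies outside these copies. mt-Atp8 shared 0% with any annotated transcript and had at most 12 counts. It lies between mt-Co2 and mt-Atp6, and the chromosome 1 sequence between their copies was not analysed here. Whether the sharing set the low counts was not tested. The log2 fold changes of the low genes, 0.55 for mt-Co2 (standard error 0.47), 0.46 for mt-Atp6 (standard error 0.48), 0.34 for mt-Nd3 (standard error 0.27) and 0.13 for mt-Co3 (standard error 0.61), rest on these few counts, and 3 of the 4 are the largest among the mitochondrial members. No level of mt-Co2, mt-Co3, mt-Atp6, mt-Atp8, mt-Nd3 or mt-Nd4l in liver can be read from the tables.

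**Figure D3:**
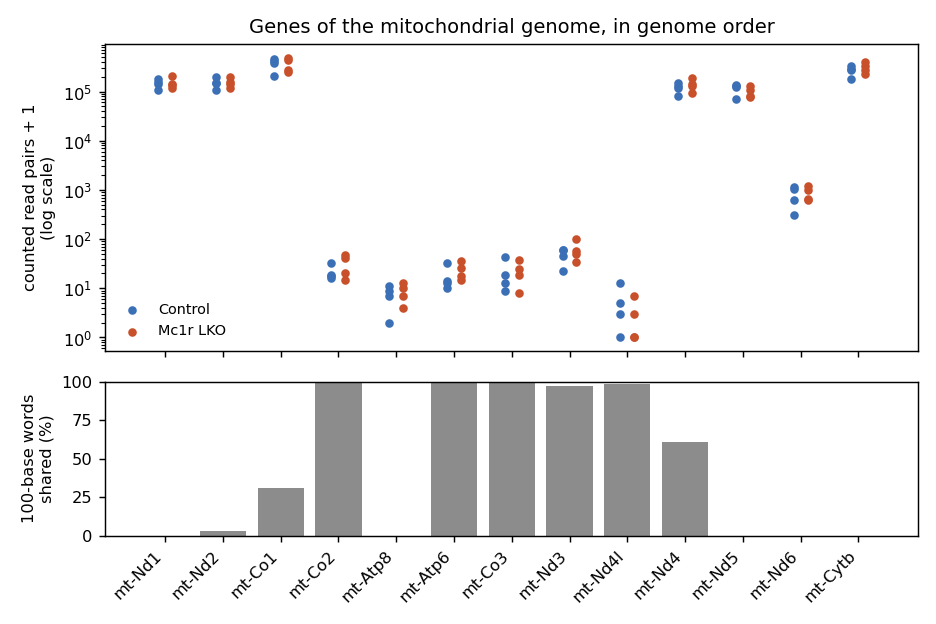
Top, counted read pairs plus 1 of each mitochondrial gene in each mouse (log scale, Control mice in blue, Mc1r LKO mice in orange), in genome order. Bottom, share of the gene's 100-base words that also occur in a transcript of another gene (percent). The 5 genes with a share of at least 97.6% had at most 98 counts, mt-Atp8 had at most 12 counts with a share of 0%, and mt-Nd4 had at least 82935 counts with a share of 60.8%.

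Levels were compared between genes as CPM per kilobase of exon. The length is that of all exons of a gene together, which can far exceed a single transcript. For Ndufb2 it was 5628 bases against 455 in the transcript, for Uqcrq 1831 against 405 and for Cox6a1 702 against 571. The order of nuclear genes, the medians by complex and the ratio below depend on this choice, and other lengths were not tried. Over all mice, the highest levels were those of mt-Cytb (13709 CPM per kilobase) and mt-Co1 (12800), followed by mt-Nd1 (8591). Control and Mc1r LKO means of mt-Cytb were 12978 ± 1122 (SD, n = 4) and 14441 ± 908 (SD, n = 4) CPM per kilobase, and of mt-Co1 13026 ± 1022 (SD, n = 4) and 12575 ± 1512 (SD, n = 4), so the order of these genes was not separated beyond the spread of the mice. Read pairs that align to more than 1 place were not counted, and 30.8% of the words of mt-Co1 and 60.8% of those of mt-Nd4 were shared, against 0% for mt-Cytb and mt-Nd1. The levels of mt-Co1 and mt-Nd4 may therefore be too low in this order, which was not tested. The median level of the 7 well counted mitochondrial genes was 106 ± 6.7 times that of the nuclear subunits (pooled SD within genotypes, n = 8). Among nuclear subunits the median level was 60.4 CPM per kilobase for complex I, 115 for complex II, 151 for complex III, 136 for complex IV and 74.6 for complex V. Within complexes the members spread widely, from Ndufb4 (6.49, with 33.4% of its words shared) to Ndufa2 (157) in complex I, from Uqcrc1 (63.8) to Uqcr11 (262) in complex III and from Ndufa4l2 (1.27) to Cox6a1 (483) in complex IV. In complex V the highest was Atp5a1 (334 CPM per kilobase), whose Control and Mc1r LKO means were 334 ± 28.9 (SD, n = 4) and 335 ± 7.01 (SD, n = 4).

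Several subunits of complex IV have forms that are used in different tissues, and the liver libraries held the widespread forms almost alone. Cox4i1 was at 289 ± 26 CPM per kilobase (SD, n = 8), while Cox4i2, the form of lung and low oxygen, had 0 to 8 counts. Cox6a1 was at 483 ± 53.4 (SD, n = 8) and its heart and muscle form Cox6a2 had 0 to 3 counts. Cox8a was at 377 ± 39.4 (SD, n = 8), and Cox8b, the other heart and muscle form, had 0 to 4 counts and Cox8c 0. Cox6b1 was at 342 ± 32 (SD, n = 8) against 0 to 9 counts of Cox6b2, a testis form. In the subunit 7a family, Cox7a2 took 76.4% to 81.9% of the summed level in each mouse and the muscle form Cox7a1 0.565% to 2.19%. Cox7a1 was at 1.65, 0.558, 0.782 and 1.63 CPM in the Control mice and 2.49, 2.14, 1.53 and 0.562 CPM in the Mc1r LKO mice (log2 fold change 0.48, standard error 0.49). Mice 141 and 156 lay above every Control mouse and mice 157 and 182 inside the Control range. Of the 11 skeletal and heart muscle markers, 5 (Acta1, Myh6, Myh2, Myh4 and Mb) were at 0 in every mouse, and the summed level was 0.886 to 1.91 CPM in Control and 0.78 to 1.66 CPM in Mc1r LKO mice.

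Ndufa4l2, a paralog of Ndufa4 known from low oxygen, was at 0.851, 1.77, 1.41 and 2.04 CPM in Control and 2.07, 1.43, 1.05 and 0.511 CPM in Mc1r LKO mice. It had the lowest log2 fold change of all members, -0.28 with a standard error of 0.44, and between -0.61 and -0.01 with single mice left out. Of the genes of subunit c, Atp5g3 made up most of the summed level, 86.1 ± 0.47% (SD, n = 4) in Control and 84.3 ± 1.33% (SD, n = 4) in Mc1r LKO mice, and Atp5g1 took 8.94 ± 0.408% (SD, n = 4) and 10.3 ± 0.973% (SD, n = 4). Atp5g3 itself was at 415, 428, 411 and 375 CPM against 438, 463, 441 and 382 CPM (log2 fold change 0.08, standard error 0.09). Read pairs that align to more than 1 place were not counted, and the words shared with other transcripts were 100% for Atp5g2, 57.3% for Atp5g1 and 0% for Atp5g3, so these shares may be too high for Atp5g3, which was not tested. The shares also depend on the exon length used, 4912 bases for Atp5g1 and 2181 for Atp5g3, where the transcripts have 596 and 714.

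**Figure D4:**
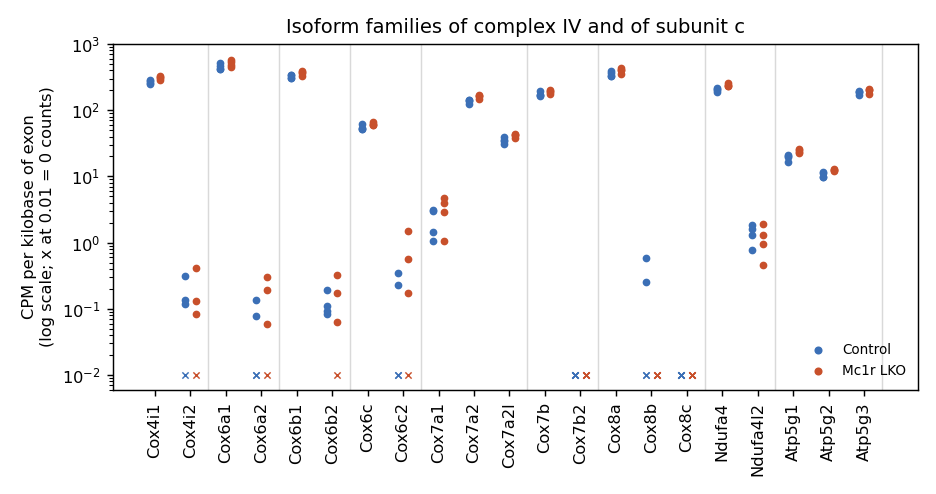
Level of each gene of the isoform families of complex IV and of subunit c of ATP synthase in each mouse, in CPM per kilobase of exon on a log scale (Control mice in blue, Mc1r LKO mice in orange, crosses at 0.01 for 0 counts). Cox4i1, Cox6a1, Cox6b1, Cox7a2, Cox8a and Atp5g3 lay above 100 CPM per kilobase in every mouse, and the tissue forms Cox4i2, Cox6a2, Cox6b2, Cox8b and Cox8c lay near or at 0.

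The subunits are short proteins, and the difference between the genotypes moved with coding length over the whole transcriptome. The median coding length was 423 bases over the 79 nuclear subunits (156 to 2181 bases) and 1389 bases over the other genes tested. Coding lengths were at hand for 12299 of the 13400 genes (91.8%). Among other genes the median log2 fold change was 0.15 for coding lengths up to 300 bases (240 genes), 0.11 from 300 to 450 (550 genes), 0.08 from 450 to 600 (745 genes), 0.04 from 600 to 900, 0.02 from 900 to 1500, -0.04 from 1500 to 3000 and -0.11 above 3000 (1663 genes). The nuclear subunits in the same classes had medians of 0.19 (21 genes), 0.21 (24 genes), 0.19 (14 genes), 0.13 (9 genes), 0.10 (7 genes) and -0.01 (4 genes), and none was longer than 3000 bases. At the unadjusted p, 18.8% of the other genes of up to 300 bases were higher, 16.5% from 300 to 450 bases and 10.2% from 450 to 600 bases, where the subunits gave 38.1%, 45.8% and 57.1%.

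Among the core and catalytic genes that were not called, some were long, with coding lengths of 2181 bases for Ndufs1, 1992 for Sdha, 1659 for Atp5a1 and 1587 for Atp5b. Others were not, with 846 bases for Sdhb, 822 for Uqcrfs1, 789 for Ndufs3 and 636 for Ndufs8. Among the members called higher all had coding lengths under 900 bases. For other genes of up to 300 bases the median deviation from the gene mean was -0.10, 0.06, -0.18 and -0.09 in the Control mice and 0.12, 0.15, 0.10 and -0.01 in the Mc1r LKO mice, where Control mouse 159 lay above Mc1r LKO mouse 182. When a smooth trend of each mouse's deviations on coding length was put into the fit as an offset, an alternative added after these values were seen, the median log2 fold change of the nuclear subunits was 0.08 and 69 of the 79 were above 0, where 50.2% of all genes were. At the unadjusted p, Ndufv2 (log2 fold change 0.18) and Ndufa11 (0.17) were then the 2 members called higher and 0 reached the limit of 0.25, where 2.32% of all genes were called higher. The medians of complexes I to V were then 0.10, 0.02, 0.09, 0.04 and 0.07. What moves with coding length in these libraries was not tested, so the size of the subunits' difference depends on whether that trend is taken out.

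**Figure D5:**
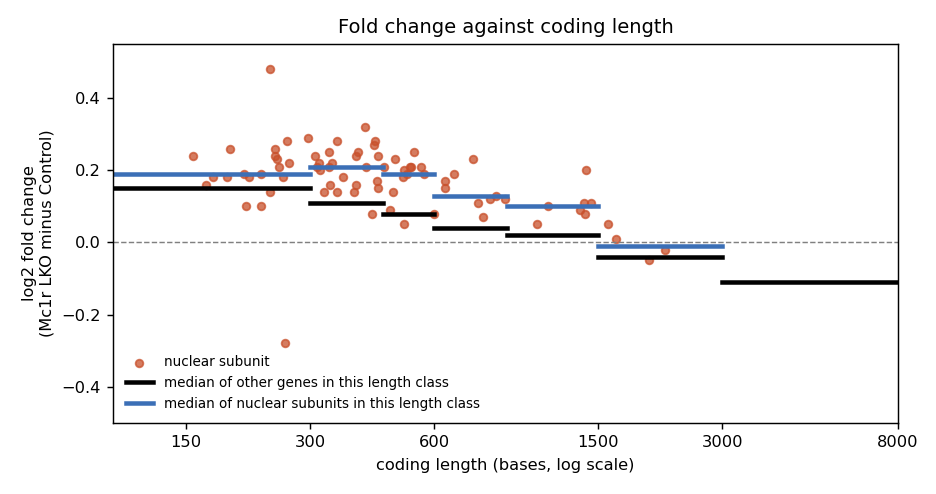
Log2 fold change against coding length (bases, log scale) for the 79 nuclear subunits (points), with the median of the other genes in each length class (black) and of the nuclear subunits in it (blue), the first and last class being drawn to the edge of the axis. Both medians fall with length, from 0.15 to -0.11 for other genes and from 0.19 to -0.01 for subunits, and the subunits lie above the other genes of each class they occupy.

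Promoters were searched because the nuclear subunits moved together. Nuclear respiratory factor 1 (NRF1), ETS factors such as GABP and YY1 are known regulators of respiratory chain genes. RefSeq windows from 250 bases before to 50 bases after the start (GRCm38.p6) were at hand for 69 nuclear members. On either strand, the NRF1 letters (GCGCA, any base, GCGC) occurred in 17 of the 69 (24.6%), against 5.19% of the windows of 27025 genes. The ETS letters CCGGAAG occurred in 16 (23.2%, against 9.93%) and the YY1 letters AAGATGGC in 10 (14.5%, against 3.19%), while TATAAA occurred in 7 (10.1%, against 15.7%). Overlaps between motifs were not removed, and a match is a description of the window only. The 27025 genes were not limited to the genes tested here. Whether the motifs go with the difference between the genotypes was not tested. The NRF1 letters are shown in capitals for a called accessory subunit of complex I and for the catalytic subunit of complex II that did not pass. They are also shown for the nuclear gene of complex IV with the highest level per kilobase of exon. Each is given with its strand and 25 bases on either side.
Ndufa11, chr17:56717677-56717736, plus strand: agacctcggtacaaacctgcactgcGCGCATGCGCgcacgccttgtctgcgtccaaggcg
Sdha, chr13:74350304-74350363, minus strand: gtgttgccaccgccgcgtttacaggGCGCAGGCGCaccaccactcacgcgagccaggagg
Cox6a1, chr5:115349086-115349145, minus strand: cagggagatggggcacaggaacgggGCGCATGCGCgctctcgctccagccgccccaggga
The windows held 1 match of the NRF1 letters for Ndufa11, 3 for Sdha and 2 for Cox6a1, and only the first in each window is shown. Its first base lay at -60 from the RefSeq start in Ndufa11, at -98 in Sdha and at -162 in Cox6a1. The 3 genes had log2 fold changes of 0.27, -0.05 and 0.16.

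Genes that build and serve the complexes were counted over whole lists. Of the 18 complex I assembly factors tested, 4 were higher at the unadjusted p and 0 lower, with a median log2 fold change of 0.11. Ndufaf8 was at 12.6, 11.4, 11.6 and 12 CPM in the Control mice and 17.3, 16.6, 14.8 and 15.5 CPM in the Mc1r LKO mice (log2 fold change 0.43, standard error 0.10), well apart, and Ndufaf6 (0.37, standard error 0.11) and Ndufaf2 (0.28, standard error 0.12) also did not overlap. For complex IV, 4 of 24 factors were higher, with Coa3 at 34.9, 31, 32.6 and 32.2 CPM against 45, 39, 42.4 and 40.4 CPM (log2 fold change 0.35, standard error 0.08), followed by Higd1a (0.31, standard error 0.09) and the copper chaperone Sco1 (0.28, standard error 0.11). Uqcc3 (0.33, standard error 0.11) and Uqcc2 (0.30, standard error 0.10) were the 2 of 6 called for complex III, Fmc1 (0.30, standard error 0.09) and Tmem242 (0.22, standard error 0.09) the 2 of 5 for complex V, and 0 of 4 were called for complex II. Over all genes 3.86% were called higher, but this share was larger for short genes. The median coding lengths of the assembly lists were 813, 364, 646, 318 and 762 bases for complexes I to V. Among other genes 16.5% of those from 300 to 450 bases were called higher and 6.34% of those from 600 to 900. The 4 of 24 for complex IV is near the share for its length. Of these 10 named factors 8 have coding sequences of 222 to 504 bases, while Ndufaf6 and Sco1 have 999 and 852.

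Beyond assembly, mitochondrial protein import had 7 of 26 genes higher, led by Tomm5 (log2 fold change 0.41, standard error 0.13), the chaperone cofactor Grpel1 (0.25, standard error 0.08) and Timm17b (0.24, standard error 0.09). The lists that follow had 0 or 1 gene called, and 1 of 19, 1 of 18 or 1 of 25 is near the 3.86% of all genes called higher. Their median coding lengths were 1362 bases for the tricarboxylic acid cycle, 1110 for coenzyme Q synthesis and 1755 for the mitochondrial DNA list, against 514 for protein import. Of 19 tricarboxylic acid cycle genes 1 was higher (Fh1, log2 fold change 0.23, standard error 0.09), and 0 of 13 genes of coenzyme Q synthesis and 0 of 10 electron carriers were. Of 18 genes of supercomplexes, cristae and the inner membrane 1 was higher (Phb2, 0.19, standard error 0.08). In the list for mitochondrial DNA replication and transcription 1 of 25 was higher (Tfb2m, 0.27, standard error 0.12), and the packaging factor Tfam had means of 41.9 ± 3.27 in Control against 41.8 ± 3.63 in Mc1r LKO livers (CPM, SD, n = 4 each). Among 12 nuclear regulators of respiratory genes 0 were higher and 1 was lower (Gabpb2, -0.30, standard error 0.11). Ppargc1a, the coactivator PGC-1alpha, was at 9.25, 7.44, 9.43 and 7.5 CPM against 13.1, 11.6, 6.71 and 5.77 CPM (log2 fold change 0.13, standard error 0.26), with Mc1r LKO mice on both sides of the Control range.

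In whole liver, fewer cells of a type and less RNA per cell cannot be told apart, so the levels of marker genes are given beside the result. Over all genes tested, 47.9% had a log2 fold change above 0, 3.86% were called higher and 2.87% lower. Of the 14 Kupffer cell and macrophage markers, 13 had a log2 fold change below 0 and 1 was called lower (Csf1r, -0.77, standard error 0.32). Their summed level was 442 to 1091 CPM in Control and 312 to 715 CPM in Mc1r LKO mice. Endothelial markers summed to 338 to 418 CPM against 266 to 393 CPM (0 of 10 called, 2 above 0). Those of stellate cells and fibroblasts summed to 382 to 723 CPM against 378 to 615 CPM (0 of 10 called, 4 above 0). Adipocyte markers summed to 50.4 to 134 CPM in Control and 19 to 41.7 CPM in Mc1r LKO mice and did not overlap, although 0 of the 2 tested were called and Lep was at 0 in every mouse. Bile duct markers (59.7 to 150 CPM against 29.8 to 255 CPM), erythroid markers (172 to 239 CPM against 199 to 267 CPM), lymphocyte markers (3.02 to 6.79 CPM against 3.11 to 4.45 CPM) and neutrophil markers (5.89 to 12.3 CPM against 4.63 to 10.1 CPM) overlapped between the genotypes. Of the last, Csf3r was lower (log2 fold change -0.77, standard error 0.34). Among 10 hepatocyte markers 9 had a log2 fold change above 0, with a median of 0.15. One of the 10, Tat, was called higher (0.88, standard error 0.37). The median coding length of these markers was 1392 bases, and other genes from 900 to 1500 bases had a median log2 fold change of 0.02. The part of hepatocytes or of other cell types in the levels of the subunits was not tested.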

How the data were processed

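Per the file headers, each deposited table holds the unnormalized, unfiltered whole-number counts of 1 mouse by gene, which the authors made from read pairs with featureCounts 2.0.1 on Ensembl 102 (GRCm38, strand option 2). The submitters' notes name Trim Galore 0.6.6, STAR 2.7.6a and Subread 2.0.1. The methods write GRCh38. Genes kept by filterByExpr (minimum count 10, minimum total count 15) were TMM-normalized and tested in edgeR 4.0.16 (R 4.3.3) by the quasi-likelihood test with Benjamini-Hochberg adjustment over 13400 genes. All p-values of log2 fold changes are from this two-sided test, unadjusted unless named otherwise. Log2 CPM took 2 as prior count, and simulated counts served to test the code. Members and gene lists were chosen with earlier results of these data known. Genes named in full were those with the smallest p in each direction, those called without overlap, the mitochondrial genes, isoform families, catalytic subunits, the most variable members and up to 3 genes per other list. Single genes outside these, among them Ndufa2, Uqcr10, Uqcrq, Cox5b and Ppargc1a, were named after their values were seen. Coding lengths and shared 100-base words came from GENCODE M21 (GRCm38). Precision is set by 4 mice per genotype and by total count. Alternatives were DESeq2 1.42.0, limma-voom (limma 3.58.1), other normalizations, filters and memberships, and leaving out mice.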

Additional observations from a re-analysis of the deposited data

Results flagged for a closer look

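Of 108 groups of 4 mice checked, 6 held a mouse far from the others by Dixon's test, where chance gives 5.4. Among Control mice, number 159 was high for Atp5j2 (169 CPM, against 141 to 145) and for mt-Nd2 (9854 CPM, against 7810 to 7927). Among Mc1r LKO mice, number 156 was high for mt-Nd2 (9120 CPM, against 8113 to 8118) and for mt-Atp6 (2.27 CPM, against 0.869 to 1.01), a gene with few counts. Control mouse 181 was high for Ndufb9 (160 CPM, against 138 to 142), and Mc1r LKO mouse 141 was low for Uqcrfs1 (206 CPM, against 221 to 223).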

How the results depend on the processing

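The number of subunits at an adjusted p under 0.05 was 0 in edgeR's quasi-likelihood test, in limma-voom and in DESeq2, whose smallest member adjusted p was 0.165, and 0 under every alternative run. The median of all genes moved by less than 0.1 under each normalization. With library size alone, 6 subunits were higher at the unadjusted p, 2 higher and 1 lower with the fold change limit, and the medians were 0.07 for core complex I and 0.08 for F1 subunits. Without the filter 18 were higher and 0 lower at the unadjusted p, and without any fold change limit 29 were higher. Leaving out both mice 181 and 182 gave 20 higher with the limit, 0 lower at the unadjusted p and an F1 median of 0.17. With the coding-length offset, 2 were higher at the unadjusted p, 0 higher with the limit and 0 lower, and the medians were 0.08 over all and over nuclear subunits, 0.10, 0.02, 0.09, 0.04 and 0.07 for complexes I to V, 0.09 for accessory and 0.10 for core complex I, 0.07 for F1 and 0.07 for other subunits of ATP synthase.

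With single mice left out, counts were 10 to 42 higher at the unadjusted p, 6 to 25 higher with the limit (25 without mouse 159, 22 without 182, 15 without 157), 0 to 1 lower at the unadjusted p and 0 to 1 lower with the limit. The medians were 0.14 to 0.26 for complex III, -0.02 to 0.09 for well counted mitochondrial genes and 0.11 to 0.16 for F1 subunits. Directions near 0 turned for Ndufs1 (0.03 without mice 181 and 182, 0.03 with the offset), mt-Nd1 (-0.03 with library size alone, -0.03 with the offset), mt-Nd2 (0.00 by DESeq2, limma-voom, RLE and no filter), Atp5g3 (-0.02 with the offset) and Atp5a1 (-0.04 with library size alone). With single mice left out they ranged over -0.13 to 0.01 for mt-Co1, -0.09 to 0.04 for Ndufs1, -0.05 to 0.10 for mt-Nd1, -0.04 to 0.09 for mt-Nd2, -0.40 to 0.74 for mt-Co3, -0.04 to 0.06 for Atp5a1 and -0.00 to 0.08 for Atp5b. The causes were not tested. No paired analysis was run, because the labels give only the number of each mouse and neither litter nor cage. The paper states that littermates were housed together and that some cages held both genotypes. Values of genes with under 100 counts in a mouse rest on few counts. Among them are 6 mitochondrial genes, for which the cause of the low counts was not tested.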
